A study of Mus musculus with 32 samples.

Results

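The 41 genes described here encode enzymes, membrane proteins and proton-pump subunits of the lysosome, together with the MiT transcription factors that regulate many lysosomal genes. They were chosen by name for their place in the lysosome, with earlier results of these data known. All 41 were found by symbol among the 24885 identifiers of the count table. Of these, 8 encode membrane proteins (Lamp1, Lamp2, Cd68, Scarb2, Laptm5, Npc1, Cln3, Mcoln1) and 12 act in the breakdown of sphingolipids, other lipids and proteins (Psap, Grn, Hexa, Gla, Arsa, Galc, Asah1, Smpd1, Npc2, Lipa, Ppt1, Tpp1). Another 10 break down glycans (Gaa, Glb1, Gusb, Naglu, Neu1, Man2b1, Manba, Idua, Ids, Arsb), 8 belong to the proton pump (Atp6v0a1, Atp6v0d1, Atp6v0d2, Atp6v1a, Atp6v1b2, Atp6v1h, Atp6ap1, Tcirg1) and 3 are MiT factors (Tfeb, Tfe3, Mitf). The study profiled macrophages grown from the bone marrow of Trem2-/- mice, named T2KO in the labels, and of wild-type (WT) mice, with C57BL/6 given as the strain of both. Each genotype was kept in low or in normal M-CSF and given LPS or not, which makes 8 groups of 4 libraries: T2KO in low M-CSF with and without LPS, T2KO in normal M-CSF with and without LPS, and the same 4 conditions in WT. The protocol names 0.5% and 10% LCCM overnight and LPS at 10 ng/ml for 4 h, and reading 0.5% as low and 10% as normal M-CSF is an inference, since no label joins them. No label states if a group's libraries were made from different mice or cultures, so every p-value measures only the spread between libraries.

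Lysosomes digest what a cell engulfs or turns over. Their proton pump (V-ATPase) acidifies the lumen for the hydrolases, and their membrane proteins protect the membrane and export products such as cholesterol. TFEB, TFE3 and MITF bind CACGTG-type elements in lysosomal promoters once they enter the nucleus, and the growth-factor kinase mTORC1, recruited by Rag GTPases and regulated by folliculin (Flcn), keeps them out of it. Macrophages carry a large lysosomal load because they take up dead cells, myelin and lipoproteins. M-CSF is the growth factor that maintains them, Trem2 is a lipid-sensing receptor on their surface, and LPS is the bacterial product that triggers their inflammatory response through TLR4.

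The promoter windows of 4 members are shown because they hold more than 1 copy of the CACGTG core. Each window runs from 250 bases before to 50 after the RefSeq transcription start, is printed 5′ to 3′ on the strand of the gene in build GRCm38.p6, and has the core in capitals. Lamp1, an abundant glycoprotein of the lysosomal membrane, lies on the plus strand with its window at chr8:13158911-13159210. Cln3, a membrane protein lost in a form of Batten disease, lies on the minus strand at chr7:126583187-126583486, which is 1 of 2 windows listed for it. Gla, the alpha-galactosidase that removes galactose from glycolipids, lies on the minus strand at chrX:134600956-134601255. Mcoln1, the lysosomal calcium channel, lies on the plus strand at chr8:3500269-3500568.
Lamp1: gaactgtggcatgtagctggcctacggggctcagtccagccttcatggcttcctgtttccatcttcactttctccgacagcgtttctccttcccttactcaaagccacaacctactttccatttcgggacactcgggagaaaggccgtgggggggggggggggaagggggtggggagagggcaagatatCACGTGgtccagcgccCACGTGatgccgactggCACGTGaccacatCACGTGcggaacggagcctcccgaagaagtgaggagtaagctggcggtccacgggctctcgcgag
Cln3: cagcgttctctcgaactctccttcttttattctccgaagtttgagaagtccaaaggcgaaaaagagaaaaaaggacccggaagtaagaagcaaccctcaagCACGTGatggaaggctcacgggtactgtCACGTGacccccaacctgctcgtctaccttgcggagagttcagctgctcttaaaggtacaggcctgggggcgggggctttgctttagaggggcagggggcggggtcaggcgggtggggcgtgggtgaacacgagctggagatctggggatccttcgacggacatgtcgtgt
Gla: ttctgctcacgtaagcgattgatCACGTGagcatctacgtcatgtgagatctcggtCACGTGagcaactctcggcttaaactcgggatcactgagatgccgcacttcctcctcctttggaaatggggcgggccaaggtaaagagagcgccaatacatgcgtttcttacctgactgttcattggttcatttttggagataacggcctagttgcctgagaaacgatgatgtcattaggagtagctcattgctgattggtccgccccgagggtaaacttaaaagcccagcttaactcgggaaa
Mcoln1: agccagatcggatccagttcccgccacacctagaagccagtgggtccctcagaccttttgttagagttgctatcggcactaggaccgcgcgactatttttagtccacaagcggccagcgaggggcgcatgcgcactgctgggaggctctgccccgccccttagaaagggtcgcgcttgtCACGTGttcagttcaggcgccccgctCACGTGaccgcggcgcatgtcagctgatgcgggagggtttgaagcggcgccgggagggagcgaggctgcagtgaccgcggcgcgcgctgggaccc
RefSeq windows were at hand for 36 of the 41 members, the others being Npc1, Asah1, Atp6v0d2, Atp6v1b2 and Atp6v1h. TCACGTG, searched on both strands, was in a window of 10 of the 36 (27.8%), against 1156 of 26742 genes with a window (4.32%). The holders were Lamp1, Cln3, Mcoln1, Gla, Arsa, Gaa, Glb1, Naglu, Atp6v0d1 and Atp6v1a, and the shorter CACGTG within it was found in the same 10 members and in 8.12% of all genes. A match is a stretch of letters and was not tested for binding.

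The libraries held 3068863 to 15585423 counts each (median 5596111), and 1.33% of all counts fell on the 41 genes. Values are CPM, the counts scaled to library size with TMM factors, given in the order of libraries 1 to 4 of a group, and group means carry the SD over n = 4. The reads come from transcript 3′ ends, so levels of single genes are compared between groups and not between genes. Sums over lists of cell markers are set side by side as a rough guide only, and Lyz2 was the largest part of the macrophage sum in every group. In 6 of the 8 groups the closest libraries were number 1 with number 3 and number 2 with number 4 (chi-square per degree of freedom 4.03 to 37.3 for these 16 pairs, median 6.38, against 9.73 to 81.5 for the other 32, median 27.6). If such pairs share a source, each group holds 2 independent samples. For that reason the number of member calls that remained after each such pair was summed is given for every comparison. For genes outside the 41, calls were made with all libraries, and the result with summed pairs is given only where stated. Trem2 was lower in every T2KO library than in every WT library of its condition, at 1.81% to 25.0% of the WT mean, with the highest share in low M-CSF without LPS. Macrophage markers (Adgre1, Csf1r, Mertk, Fcgr1, Itgam, Cd14, Lyz2) summed to 3837 to 10550 CPM, while stromal markers stayed at or below 5.56 CPM. In RNA from whole cultures, fewer cells of a type and less RNA per cell cannot be told apart. Exons of 8 members overlap a gene on the opposite strand (Lamp1, Cln3, Npc1, Arsa, Galc, Ppt1, Idua and Arsb), and the strand setting of the counting is not given in the sources used here. Exons of Glb1 overlap those of Tmppe on the same strand.

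**Figure D1:**
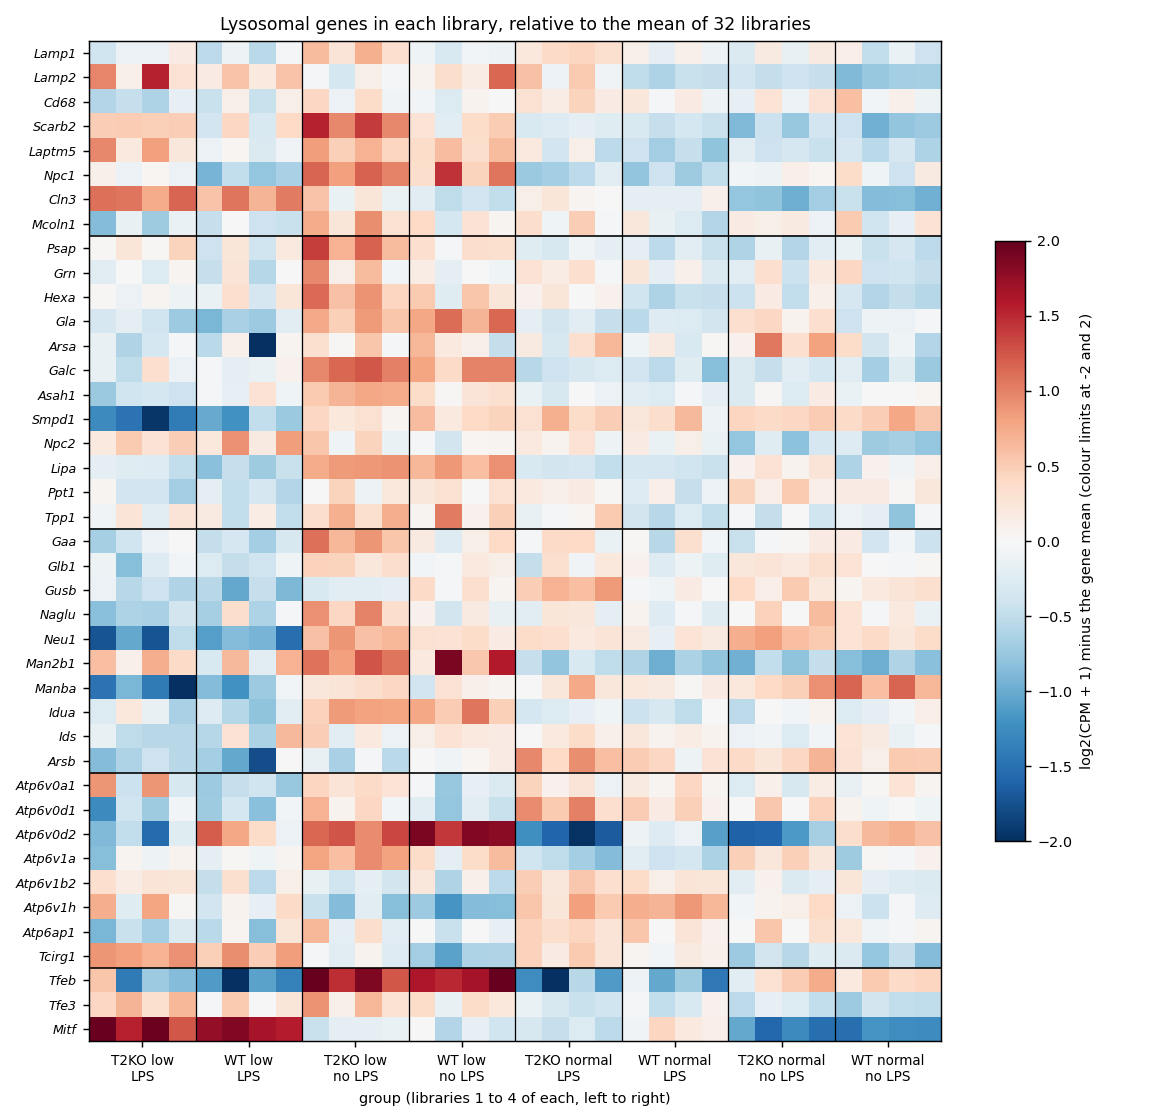
Level of each of the 41 genes (rows, grouped by role) in each of the 32 libraries (columns, grouped by genotype, M-CSF and LPS), as log2(CPM + 1) minus the mean of that gene over all libraries, coloured between −2 and 2. Mitf and Tcirg1 were above their means in both groups in low M-CSF with LPS, where Smpd1 and Neu1 were below theirs.

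In low M-CSF without LPS, T2KO macrophages carried more transcript of several lysosomal membrane, enzyme and pump genes than WT macrophages. Of the 41 genes, 10 were higher and 1 was lower in T2KO (24.4% and 2.44%; edgeR quasi-likelihood test, adjusted p below 0.05 over all 11244 genes tested), where 7.74% of all genes were higher and 8.97% lower. The median log2 fold change was 0.29 for the 41 genes and 0.07 for all genes. By role, 3 of 8 membrane, 2 of 12 lipid and protein breakdown, 2 of 10 glycan breakdown and 3 of 8 pump genes were higher. The MiT factors did not pass (log2 fold changes of -0.01 for Tfeb, 0.32 for Tfe3 and 0.03 for Mitf).

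Scarb2, the membrane receptor that carries glucocerebrosidase to the lysosome (Entrez 12492, chr5:92441311-92505657, minus strand, mm10), stood at 253, 169, 228 and 169 CPM in the T2KO libraries, against 104, 73.4, 111 and 124 CPM in the WT libraries. Every T2KO library was above every WT library, and T2KO libraries 1 and 3 were the highest (204 ± 42.6 against 103 ± 21.4 CPM; log2 fold change 0.99 ± 0.18, adjusted p = 0.000104). Psap, the precursor of the saposins that present sphingolipids to their hydrolases, had 4035, 2507, 3473 and 2394 CPM in T2KO and 1940.0, 1492, 1970.0 and 1926 CPM in WT libraries. The groups did not overlap, with T2KO libraries 1 and 3 again on top (log2 fold change 0.76 ± 0.18, adjusted p = 0.00197). Naglu, which trims heparan sulfate, had 56.4, 39.6, 59.99 and 38.1 CPM in T2KO and 31.6, 22.8, 33.7 and 26.7 CPM in WT libraries, with no overlap (log2 fold change 0.75 ± 0.20, adjusted p = 0.00856). Gaa, the acid glucosidase that degrades glycogen, was higher too, at 50.7 ± 8.82 CPM in T2KO and 31.2 ± 5.92 CPM in WT (log2 fold change 0.70 ± 0.20, adjusted p = 0.0123). So was the acid ceramidase gene Asah1, at 236 ± 18.1 CPM in T2KO and 174 ± 17.7 CPM in WT (log2 fold change 0.44 ± 0.14, adjusted p = 0.0274). Lamp1 had 1090.0, 838, 1143 and 888 CPM in T2KO and 657, 564, 672 and 655 CPM in WT libraries, again without overlap (log2 fold change 0.64 ± 0.16, adjusted p = 0.00495). Among the pump genes, Tcirg1, the a3 subunit of the membrane sector, had 181, 157, 194 and 154 CPM in T2KO and 113, 87.3, 120.3 and 121 CPM in WT libraries (log2 fold change 0.63 ± 0.16, adjusted p = 0.0035). Its groups were apart, as were those of the neighbouring membrane-sector subunits Atp6v0d1 (0.73 ± 0.21) and Atp6v0a1 (0.64 ± 0.21) and of the membrane protein Cln3 (0.57 ± 0.16). The gene that was lower, Gusb, the beta-glucuronidase, had 153, 161, 162 and 166 CPM in T2KO and 247, 186, 239 and 197 CPM in WT libraries (log2 fold change -0.43 ± 0.15, adjusted p = 0.0381). The 30 genes that did not pass had log2 fold changes from -0.59 (Atp6v0d2) to 0.50 (Grn, the progranulin gene).

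Of these 11 calls, 6 were lost when 1 library was left out. Atp6v0d1 was lost without T2KO library 1 or WT library 2 (adjusted p between 0.0772 and 0.0854), and Gaa without T2KO library 1 or WT library 2 (adjusted p between 0.0605 and 0.0705). The call for Cln3 did not pass without T2KO library 1 (adjusted p = 0.0956), nor that for Atp6v0a1 without T2KO libraries 1 or 3 or WT libraries 2 or 4 (adjusted p between 0.0652 and 0.158). Asah1 was lost without T2KO libraries 3 or 4 or WT library 2 (adjusted p between 0.0572 and 0.113). Gusb was lost without T2KO libraries 1, 2, 3 or 4 or WT libraries 1 or 3 (adjusted p between 0.062 and 0.128). The call for Scarb2 alone remained when libraries 1 and 3, and 2 and 4, were summed. Neutrophil markers summed to 151 to 219 CPM in these T2KO libraries and 59.9 to 97.9 CPM in the WT libraries, and 6 of the 8 neutrophil markers tested were higher in T2KO. Mpo was at 0 in 1 WT library and Elane was above 0 in all 8. Monocyte markers summed to 137 to 173 CPM in T2KO and 427 to 504 CPM in WT libraries. The part of these markers in the lysosomal differences was not tested.

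Genes with and without the TCACGTG element can be set side by side. Of the 10 genes with it, 5 were higher in T2KO than in WT in low M-CSF without LPS and the median log2 fold change was 0.52, while 4 of the 26 with a window that lacked it were higher, 1 was lower and the median was 0.17. The 5 were Lamp1, Cln3, Gaa, Naglu and Atp6v0d1. The order was the other way in low against normal M-CSF without LPS, where the median was 0.42 with the element and 0.56 without it in T2KO, and 0.18 and 0.56 in WT. There 5 of 10 genes with the element and 13 of 26 without it were higher in T2KO, and 2 of 10 and 14 of 26 in WT. With LPS in low M-CSF, 8 of 10 genes with it and 17 of 26 without it were lower in T2KO, and 2 of 10 and 13 of 26 in WT. Of all genes tested, 7.74% were higher and 8.97% lower in T2KO than in WT in low M-CSF without LPS. In low against normal M-CSF without LPS, 26.6% of all genes were higher in T2KO and 22.4% in WT. With LPS in low M-CSF, 41.0% were lower in T2KO and 33.6% in WT. Calls were not counted over all genes that hold the element, and no test was made of the counts in this paragraph.

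**Figure D2:**
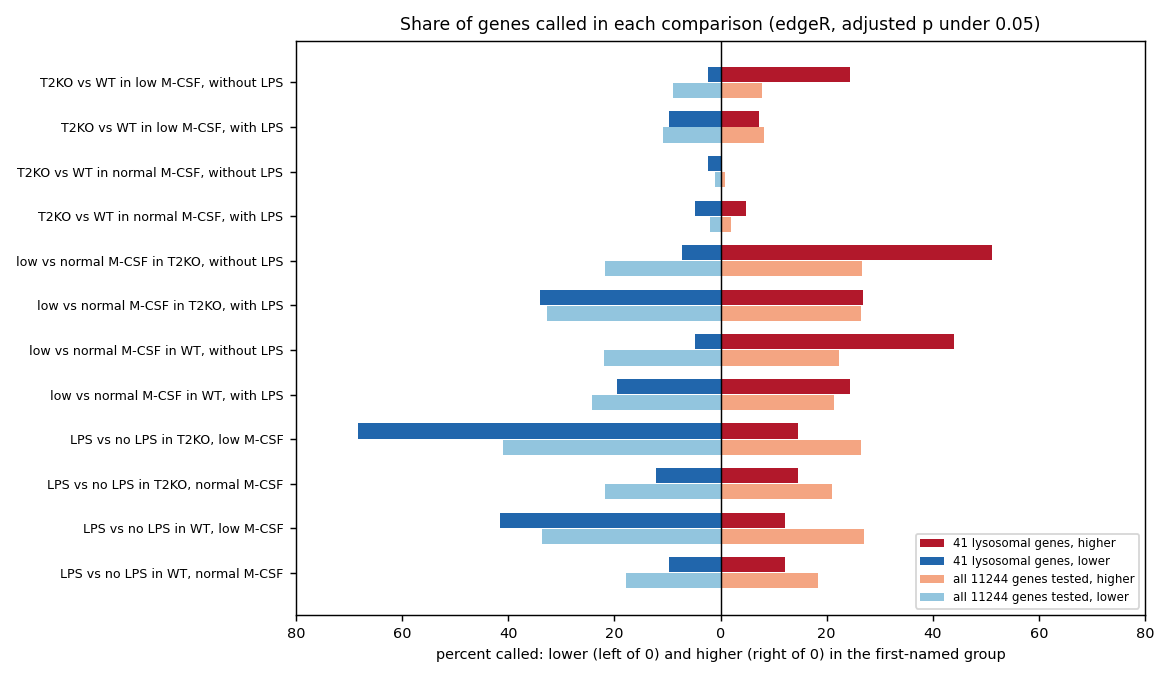
Percentage of genes called higher or lower (edgeR, adjusted p below 0.05) in each of the 12 two-group comparisons, for the 41 lysosomal genes and for all 11244 genes tested. Of the lysosomal genes, 24.4% were higher in T2KO than in WT in low M-CSF without LPS, against 7.74% of all genes, 51.2% were higher in low M-CSF in T2KO without LPS, against 26.6%, and 68.3% were lower with LPS in T2KO in low M-CSF, against 41.0%.

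With LPS in low M-CSF, 3 of the 41 genes were higher and 4 were lower in T2KO than in WT cells, or 7.32% and 9.76%, against 8.20% and 10.9% of all genes. Of all calls in this comparison, 42.9% were higher with TMM and 53.2% with RLE scaling. Atp6v0a1, a membrane-sector pump subunit, had 158, 63.3, 159 and 68.5 CPM in T2KO and 51.4, 61.99, 64.6 and 50.5 CPM in WT libraries. T2KO libraries 1 and 3 were well above all the others (log2 fold change 0.98 ± 0.22, adjusted p = 0.00186). Npc1, the transporter that exports cholesterol from the lysosome, had 315, 271, 299.9 and 269.5 CPM in T2KO and 152, 207, 170.1 and 186 CPM in WT libraries, with no overlap (log2 fold change 0.69 ± 0.19, adjusted p = 0.00907). Laptm5, a lysosomal membrane protein of blood cells, averaged 1087 ± 295 CPM in T2KO and 672 ± 63.1 CPM in WT (log2 fold change 0.69 ± 0.17, adjusted p = 0.00406). The 4 that were lower were Atp6v0d2, the sphingomyelinase Smpd1 (-0.79 ± 0.25), Asah1 (-0.48 ± 0.14) and the beta-mannosidase Manba (-0.83 ± 0.30). Smpd1 was lost without T2KO library 3 or WT libraries 3 or 4 (adjusted p between 0.0582 and 0.109), and Asah1 without T2KO library 1 or WT library 3 (adjusted p between 0.0796 and 0.0827). Manba was lost without T2KO libraries 1, 3 or 4 or WT libraries 3 or 4 (adjusted p between 0.0604 and 0.255). With the library pairs summed, 1 of the 7 calls remained, that of Atp6v0d2. Neutrophil markers summed to 230.5 to 391 CPM in these T2KO libraries and 179 to 206 CPM in the WT libraries, with 1 of 8 tested higher in T2KO, and their part was not tested.

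In normal M-CSF without LPS, a single lysosomal gene differed between the genotypes, where 0.747% of all genes were higher and 1.11% lower in T2KO. This was Atp6v0d2 (Entrez 242341, chr4:19876838-19922566, minus strand), the d2 subunit of the pump's membrane sector, which is known for its role in osteoclasts and is also made by macrophages. It had 3.103, 3.19, 4.72 and 6.97 CPM in T2KO libraries and 15.1, 18.7, 19.7 and 17.9 CPM in WT libraries. The highest T2KO library lay far below the lowest WT library (log2 fold change -2.0 ± 0.28, adjusted p = 9.62e-06). In normal M-CSF with LPS it had 4.37, 3.21, 2.22 and 2.99 CPM in T2KO and 10.8, 9.54, 10.6 and 4.95 CPM in WT libraries, again without overlap (log2 fold change -1.55 ± 0.31, adjusted p = 0.00171). In low M-CSF with LPS it had 5.87, 7.997, 3.33 and 9.71 CPM in T2KO and 28.2, 20.7, 15.3 and 10.7 CPM in WT libraries (log2 fold change -1.54 ± 0.31, adjusted p = 0.000577). In low M-CSF without LPS it had 27.1, 29.2, 23.2 and 31 CPM in T2KO and 45.8, 32.8, 44.5 and 43.1 CPM in WT libraries. There the groups were also apart, but the difference did not pass (log2 fold change -0.59 ± 0.25, adjusted p = 0.101). All 4 T2KO groups thus lay below their WT groups, and each of the 3 calls remained with the library pairs summed. The partner isoform Atp6v0d1, which fills the same place in the pump, was not lower in T2KO in normal M-CSF (log2 fold changes of 0.30 without and 0.41 with LPS, neither passing).

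Summed osteoclast markers were lower in T2KO than in WT in low M-CSF. Their ranges overlapped in normal M-CSF, where Atp6v0d2 was called lower with and without LPS. The 7 markers (Acp5, Ctsk, Calcr, Ocstamp, Dcstamp, Oscar, Mmp9) summed to 2.03 to 6.33 CPM in T2KO and 7.299 to 11.7 CPM in WT libraries in low M-CSF without LPS, and to 15.4 to 31.6 and 39.2 to 74.4 CPM in low M-CSF with LPS. In normal M-CSF without LPS they summed to 7.38 to 14.3 CPM in T2KO and 8.16 to 12.01 CPM in WT libraries, which overlap. In normal M-CSF with LPS they summed to 14.6 to 27.5 CPM in T2KO and 22.5 to 31.7 CPM in WT libraries, which overlap as well. Mmp9, a protease that is also made by other cells, went the other way in normal M-CSF without LPS and was higher in T2KO, at 6.79 ± 2.18 CPM in T2KO and 2.44 ± 0.489 CPM in WT (log2 fold change 1.46 ± 0.34, adjusted p = 0.0139). This call was lost without T2KO library 4 or WT library 3 and with the library pairs summed (adjusted p between 0.0674 and 0.226). Dcstamp, needed for osteoclasts to fuse, was lower in T2KO in low M-CSF without LPS (log2 fold change -4.39 ± 0.66, adjusted p = 4.88e-06), with at most 0.456 CPM in T2KO and at least 1.67 CPM in WT libraries. It was also lower with LPS in low M-CSF (log2 fold change -3.12 ± 0.75, adjusted p = 0.00304) and in normal M-CSF (log2 fold change -2.70 ± 0.60, adjusted p = 0.00535), and in normal M-CSF without LPS it did not pass (log2 fold change -1.89 ± 0.54, adjusted p = 0.0566) although its groups were apart. In normal M-CSF with LPS its call was lost with the library pairs summed (adjusted p = 0.0946). Calcr, the calcitonin receptor that marks mature osteoclasts, was at 0 in all 32 libraries, and Oscar was above 0 in 3 of them. The part of these markers in the difference of Atp6v0d2 was not tested.

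In normal M-CSF with LPS, 4 lysosomal genes passed, 2 higher and 2 lower in T2KO, where 1.98% and 2.05% of all genes did. Gusb had 267, 308, 288 and 341 CPM in T2KO and 186, 179, 212 and 191 CPM in WT libraries, all T2KO libraries being higher (log2 fold change 0.65 ± 0.15, adjusted p = 0.00683). Its difference had the opposite sign in low M-CSF without LPS, as given above. Lamp2, the second major membrane glycoprotein, averaged 751 ± 194 CPM in T2KO and 436 ± 21.9 CPM in WT (log2 fold change 0.79 ± 0.23, adjusted p = 0.0381). Mitf averaged 79.6 ± 6.72 CPM in T2KO and 119 ± 17.1 CPM in WT (log2 fold change -0.58 ± 0.17, adjusted p = 0.039). Lamp2 was lost without T2KO libraries 1 or 3 or WT libraries 1, 2, 3 or 4 (adjusted p between 0.0668 and 0.157), and Mitf without T2KO libraries 1, 2, 3 or 4 or WT libraries 2, 3 or 4 (adjusted p between 0.0586 and 0.159). With the library pairs summed, 1 of the 4 calls remained, that of Atp6v0d2, and Gusb (adjusted p = 0.394), Lamp2 (adjusted p = 0.467) and Mitf (adjusted p = 0.553) were lost.

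**Figure D3:**
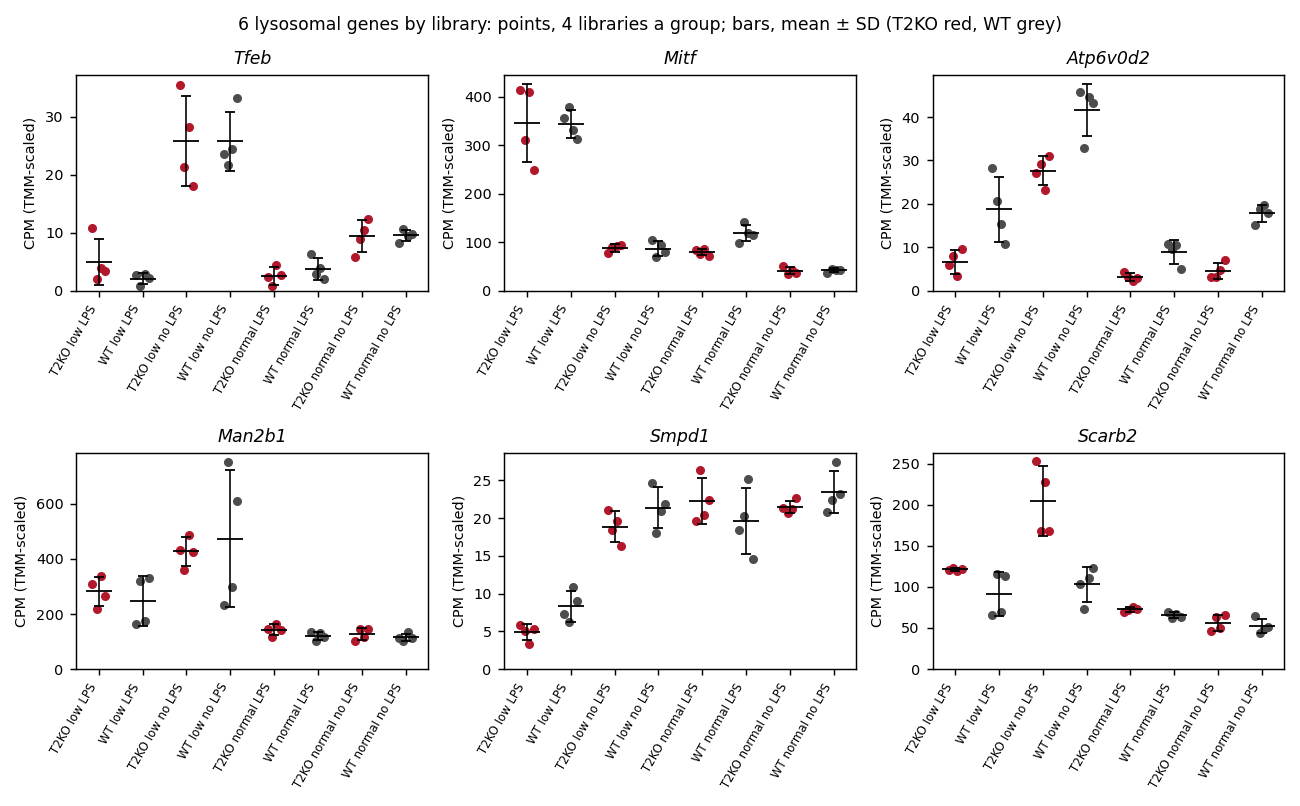
CPM of Tfeb, Mitf, Atp6v0d2, Man2b1, Smpd1 and Scarb2 in every library, by genotype, M-CSF and LPS, with the mean and SD of each group (n = 4). In low M-CSF with LPS, Mitf had its highest values, 249 to 414 CPM in T2KO and 312 to 379 CPM in WT libraries, while Smpd1 had its lowest, 3.33 to 5.87 CPM in T2KO and 6.2 to 10.9 CPM in WT libraries.

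Whether the genotype difference itself varied was tested with interaction terms. Without LPS, it varied with M-CSF for 3 members, against 4.62% of all genes: Scarb2 (log2 fold change 0.88 ± 0.26, adjusted p = 0.0375), Atp6v0d2 (log2 fold change 1.41 ± 0.37, adjusted p = 0.0179) and Gla (log2 fold change -0.74 ± 0.22, adjusted p = 0.0433). A positive value means that T2KO stood higher relative to WT in low than in normal M-CSF. Scarb2 was lost without T2KO low M-CSF without LPS libraries 1 or 3, T2KO normal M-CSF without LPS libraries 1 or 3, WT low M-CSF without LPS libraries 1 or 2 or WT normal M-CSF without LPS libraries 1 or 4 (adjusted p between 0.0511 and 0.109). Atp6v0d2 was lost without T2KO normal M-CSF without LPS library 1 (adjusted p = 0.0541). Gla was lost without T2KO low M-CSF without LPS libraries 1, 2 or 4, T2KO normal M-CSF without LPS libraries 1, 2 or 4, WT low M-CSF without LPS libraries 2 or 4 or WT normal M-CSF without LPS libraries 1, 2 or 3 (adjusted p between 0.0519 and 0.107). In low M-CSF, the LPS response differed between the genotypes for 5 members, against 16.0% of all genes, of which 46.9% were positive with TMM and 60.8% with RLE. The median of all genes was -0.13 with TMM and -0.02 with RLE, and that of the members -0.39 and -0.28. The LPS response was more negative in T2KO for Naglu (log2 fold change -1.20 ± 0.31, adjusted p = 0.00787), Manba (log2 fold change -1.12 ± 0.37, adjusted p = 0.0351) and Asah1 (log2 fold change -0.92 ± 0.20, adjusted p = 0.00224). It was more positive for Lamp2 (log2 fold change 1.02 ± 0.32, adjusted p = 0.0251) and Gusb (log2 fold change 0.75 ± 0.21, adjusted p = 0.0151). Lamp2 was lost without T2KO low M-CSF with LPS libraries 1 or 3 or WT low M-CSF without LPS library 4 (adjusted p between 0.0508 and 0.11). Manba was lost without T2KO low M-CSF with LPS libraries 1, 3 or 4, T2KO low M-CSF without LPS libraries 3 or 4, WT low M-CSF with LPS library 4 or WT low M-CSF without LPS library 1 (adjusted p between 0.051 and 0.141). No member kept an interaction call with genotype by edgeR once the library pairs were summed. With LPS, no member's genotype difference varied with M-CSF by edgeR, with 10 at an unadjusted p below 0.05 and 2 called by DESeq2. Of all genes, 5.49% were called (40.0% of them positive with TMM, 53.6% with RLE). In normal M-CSF, no member's LPS response differed between the genotypes by edgeR, with 3 at an unadjusted p below 0.05 and 0 called by DESeq2, and 0.534% of all genes were called.

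Without LPS, many lysosomal transcripts were higher in low than in normal M-CSF, in both genotypes. In T2KO cells 21 of the 41 genes were higher and 3 lower in low M-CSF, where 26.6% of all genes were higher and 21.7% lower, so 51.2% of the members stood against 26.6% of all genes. In WT cells 18 were higher and 2 lower (43.9% higher), where 22.4% of all genes were higher and 21.9% lower. The median log2 fold change was 0.46 for the members and 0.10 for all genes in T2KO, and 0.29 and 0.01 in WT. The 2 comparisons share no library. The overlap of their calls was not counted over all genes, so it cannot be called particular to the members. Of the members, 17 were higher in both, which is 81% of the T2KO list and 94.4% of the WT list. All 3 MiT factors were among them, with 5 of 8 membrane and 8 of 12 lipid and protein breakdown genes higher in T2KO, and 4 and 7 in WT. Fewer glycan breakdown genes (3 of 10 in T2KO, 2 in WT) and pump genes (2 of 8 in each) were higher.

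Cell type markers differed between the media as well. The macrophage markers summed to 7180.0 to 9132 CPM in low and 3879 to 4676 CPM in normal M-CSF in T2KO, and to 7080.0 to 8374 and 3837 to 4400.0 CPM in WT libraries. Of the 7, 4 were higher and 1 lower in low M-CSF in T2KO, and 5 were higher and 1 lower in WT. Csf1r, the M-CSF receptor, had log2 fold changes of 1.79 ± 0.20 in T2KO and 1.04 ± 0.20 in WT, and the dead-cell receptor Mertk of 2.71 ± 0.39 and 1.73 ± 0.38. The neutrophil markers summed to 151 to 219 CPM in low and 54.6 to 61.2 CPM in normal M-CSF in T2KO, with 6 of 8 higher, and to 59.9 to 97.9 and 53.2 to 65.5 CPM in WT, with 2 of 8 higher. The monocyte markers summed to 137 to 173 CPM in low and 83.04 to 98.8 CPM in normal M-CSF in T2KO, and to 427 to 504 and 99.96 to 148 CPM in WT. Of these 4 genes, 2 were higher and 2 lower in T2KO, and 1 was higher and 3 lower in WT, where the chemokine receptor Ccr2 (2.33 ± 0.18) and Ly6c2 (-2.33 ± 0.26) changed in opposite directions. The part of these markers in the lysosomal differences was not tested.

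Tfeb, the best known activator of lysosomal genes (Entrez 21425, chr17:47737037-47792416, plus strand), had 35.6, 21.3, 28.2 and 18.1 CPM in low and 5.896, 8.96, 10.4 and 12.4 CPM in normal M-CSF in T2KO libraries (log2 fold change 1.45 ± 0.32, adjusted p = 0.000334). In WT libraries it had 23.6, 21.8, 24.5 and 33.2 CPM in low and 8.23, 10.6, 9.48 and 9.85 CPM in normal M-CSF (log2 fold change 1.43 ± 0.32, adjusted p = 0.000416). In both genotypes all low M-CSF libraries were above all normal ones. Mitf averaged 88.8 ± 8.04 CPM in low and 41.1 ± 7.39 CPM in normal M-CSF in T2KO (log2 fold change 1.11 ± 0.17, adjusted p = 9.27e-07), and 86.9 ± 15.7 and 42.3 ± 4.102 CPM in WT (log2 fold change 1.04 ± 0.17, adjusted p = 4.15e-06). Tfe3 changed less (log2 fold change 0.90 ± 0.17 in T2KO and 0.74 ± 0.17 in WT).

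Several enzymes and membrane proteins were higher in low M-CSF as well. Man2b1, the acid mannosidase of glycoprotein turnover, had 433, 361, 488 and 426 CPM in low and 104, 144, 116 and 147 CPM in normal M-CSF in T2KO libraries (log2 fold change 1.74 ± 0.25, adjusted p = 4.07e-07). In WT libraries it had 233, 753, 297 and 610.5 CPM in low and 112, 103, 134 and 113 CPM in normal M-CSF (log2 fold change 2.03 ± 0.25, adjusted p = 4.11e-08). The low M-CSF libraries were all above the normal ones, and within WT in low M-CSF libraries 2 and 4 were far above libraries 1 and 3. Scarb2 had 204 ± 42.6 CPM in low and 56.6 ± 9.68 CPM in normal M-CSF in T2KO (log2 fold change 1.85 ± 0.19, adjusted p = 1.56e-10), and 103 ± 21.4 and 52.3 ± 8.69 CPM in WT (log2 fold change 0.98 ± 0.18, adjusted p = 3.87e-05). Galc, which removes galactose from myelin lipids, had 65.95, 75.3, 80.1 and 68.2 CPM in low and 27.1, 24.1, 28.4 and 26.04 CPM in normal M-CSF in T2KO libraries (log2 fold change 1.45 ± 0.18, adjusted p = 1.12e-08), and a log2 fold change of 1.30 ± 0.17 in WT. The cholesterol exporter Npc1 was higher by 1.04 ± 0.19 in T2KO and 0.86 ± 0.19 in WT on the log2 scale, and the acid lipase Lipa, which frees cholesterol from its esters, by 0.67 ± 0.14 and 0.86 ± 0.14. The iduronidase Idua, the saposin precursor Psap and the hexosaminidase subunit Hexa were also higher in both (0.88, 1.38 and 0.93 in T2KO, 0.86, 0.60 and 0.79 in WT). Gla was higher by 1.12 ± 0.16 in WT and by 0.38 ± 0.16 in T2KO. Atp6v0d2 had the largest fold change in T2KO, with 27.6 ± 3.35 CPM in low and 4.497 ± 1.81 CPM in normal M-CSF (log2 fold change 2.63 ± 0.28, adjusted p = 6.23e-10), and was 41.6 ± 5.95 and 17.8 ± 1.98 CPM in WT (log2 fold change 1.22 ± 0.25, adjusted p = 0.000151).

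A few members were lower in low M-CSF. Atp6v1h, the regulatory H subunit of the pump's catalytic sector, was lower in both genotypes (-0.73 ± 0.20 in T2KO, -0.72 ± 0.20 in WT). In T2KO the sulfatase Arsb (-0.79 ± 0.22) and Gusb (-0.57 ± 0.15) were also lower, and in WT so was Manba (-0.93 ± 0.22). In T2KO, Gla was lost without low M-CSF libraries 1 or 3 or normal M-CSF library 3 (adjusted p between 0.0623 and 0.095). The catalytic A subunit Atp6v1a was lost there without low M-CSF libraries 1, 3 or 4 or normal M-CSF libraries 2 or 4 (adjusted p between 0.0547 and 0.0894). In WT, Atp6v1a was lost without low M-CSF libraries 1, 3 or 4 or normal M-CSF library 1 (adjusted p between 0.0606 and 0.161), and the peptidase Tpp1 without low M-CSF library 2 (adjusted p = 0.0611). Once the library pairs were summed, 17 of 24 calls remained in T2KO and 14 of 20 in WT, with Tfeb, Tfe3, Mitf, Scarb2, Man2b1, Npc1, Lipa, Galc, Idua and Atp6v0d2 among those of both.

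**Figure D4:**
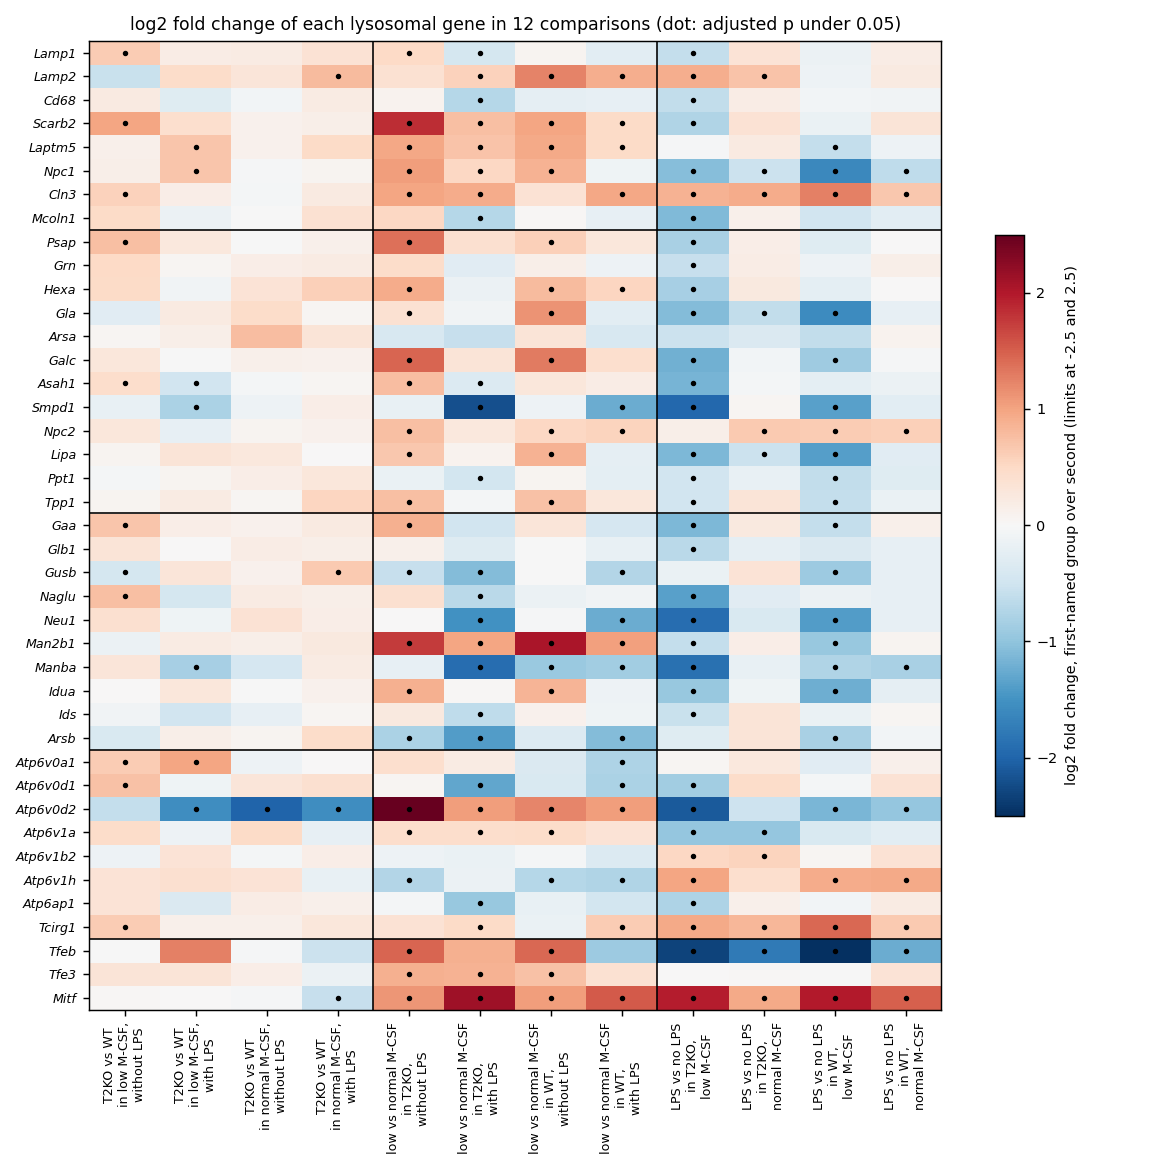
Log2 fold change of each of the 41 genes (rows, grouped by role) in the 12 two-group comparisons (columns), coloured between −2.5 and 2.5, with a dot where the adjusted p was below 0.05. In low against normal M-CSF without LPS, 21 members in T2KO and 18 in WT were higher, where 26.6% and 22.4% of all genes were. With LPS in low M-CSF, 28 in T2KO and 17 in WT were lower, where 41.0% and 33.6% of all genes were.

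With LPS present, low against normal M-CSF split the members. In T2KO cells 11 were higher and 14 lower in low M-CSF, where 26.5% of all genes were higher and 32.8% lower, and in WT cells 10 were higher and 8 lower, where 21.4% and 24.2% were. The members' median was -0.15 in T2KO and -0.13 in WT, against -0.14 and -0.10 for all genes. With RLE scaling the T2KO medians became 0.03 for the members and 0.02 for all genes, so their sign depends on the scaling. The share of all calls that were higher was 44.7% with TMM, 52.6% with RLE and 52.3% with DESeq2 in T2KO. Of the 7 macrophage markers 6 were higher in low M-CSF in each genotype, and neutrophil markers summed to 230.5 to 391 CPM in low and 87.3 to 140.5 CPM in normal M-CSF in T2KO, and to 179 to 206 and 102 to 122 CPM in WT. Their part in the lysosomal differences was not tested.

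Mitf had the largest increase of the members in both genotypes, with 414, 311, 409.7 and 249 CPM in low and 84.1, 75.4, 86.5 and 72.6 CPM in normal M-CSF in T2KO libraries given LPS (log2 fold change 2.12 ± 0.17, adjusted p = 1.11e-12). In WT libraries given LPS it had 356, 379, 330.5 and 312 CPM in low and 99.2, 141, 119.9 and 116 CPM in normal M-CSF (log2 fold change 1.54 ± 0.17, adjusted p = 3.53e-09). All low M-CSF libraries were above all normal ones. Man2b1 was higher by 0.98 ± 0.25 in T2KO and 1.03 ± 0.25 in WT, Cln3 by 0.92 ± 0.16 and 0.97 ± 0.16, and Tcirg1 by 0.48 ± 0.16 and 0.63 ± 0.16. Smpd1, the acid sphingomyelinase that turns sphingomyelin into ceramide (Entrez 20597, chr7:105554360-105558389, plus strand), had 5.87, 4.998, 3.33 and 5.34 CPM in low and 19.7, 26.4, 20.5 and 22.4 CPM in normal M-CSF in T2KO libraries (log2 fold change -2.20 ± 0.23, adjusted p = 2.51e-10), and its groups were far apart. In WT it averaged 8.35 ± 2.06 and 19.6 ± 4.398 CPM (log2 fold change -1.24 ± 0.21, adjusted p = 1.16e-05). Manba (-1.90 ± 0.27 in T2KO, -0.87 ± 0.25 in WT), the sialidase Neu1 (-1.51 ± 0.19 and -1.24 ± 0.19), Arsb (-1.40 ± 0.24 and -1.09 ± 0.24) and Gusb (-1.08 ± 0.15 and -0.74 ± 0.15) were lower in low M-CSF in both. Of the glycan breakdown genes, 6 of 10 were lower in T2KO and 4 in WT, with Man2b1 as the one that was higher in each.

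Several calls in this comparison were lost when 1 library was left out. In T2KO, Lamp1 was lost without low M-CSF library 1 or normal M-CSF library 3 (adjusted p between 0.0572 and 0.0944), and Lamp2 without low M-CSF libraries 1 or 3 or normal M-CSF libraries 2 or 4 (adjusted p between 0.0568 and 0.319). Npc1 was lost without normal M-CSF library 1 (adjusted p = 0.0534), and Mcoln1 without low M-CSF libraries 1 or 3 or normal M-CSF library 3 (adjusted p between 0.0702 and 0.0847). Asah1 was lost without low M-CSF libraries 1, 2 or 4 or normal M-CSF libraries 1, 3 or 4 (adjusted p between 0.0665 and 0.197). The thioesterase Ppt1 was lost without low M-CSF library 4 (adjusted p = 0.0904), and Atp6v1a without low M-CSF libraries 2, 3 or 4 or normal M-CSF libraries 3 or 4 (adjusted p between 0.0658 and 0.104). In WT, Scarb2 was lost without low M-CSF libraries 2 or 4 or normal M-CSF libraries 2, 3 or 4 (adjusted p between 0.0545 and 0.156), and Laptm5 without low M-CSF library 2 or normal M-CSF libraries 2 or 4 (adjusted p between 0.0519 and 0.0709). Hexa was lost without low M-CSF library 2 (adjusted p = 0.0699), and the cholesterol carrier Npc2 without low M-CSF library 2 (adjusted p = 0.0696). With the library pairs summed, 15 of 25 calls remained in T2KO and 10 of 18 in WT, Mitf, Man2b1, Cln3, Smpd1, Neu1, Manba, Arsb, Gusb and Atp6v0d2 among those of both.

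In low M-CSF, many of the lysosomal transcripts were lower with LPS than without. In T2KO cells 28 of the 41 genes were lower and 6 higher with LPS (68.3% and 14.6%), where 41.0% of all genes were lower and 26.5% higher. In WT cells 17 were lower and 5 higher (41.5% and 12.2%), where 33.6% and 27.0% of all genes were. The median was -0.67 for the members and -0.36 for all genes in T2KO, and -0.37 and -0.18 in WT. With RLE scaling the T2KO medians were -0.56 for the members and -0.25 for all genes. The 2 genotypes share no library here, and 14 members were lower in both, 50.0% of the T2KO list and 82.4% of the WT list. This overlap was not counted over all genes either, so it cannot be called particular to the members. By role, 10 of 12 lipid and protein breakdown, 8 of 10 glycan breakdown, 5 of 8 membrane and 4 of 8 pump genes were lower in T2KO, against 6, 7, 2 and 1 in WT. The median library held 5154474.5 counts with LPS and 10267529 without in T2KO, and 3466606 and 6025919.5 in WT. The part of this depth in the numbers of calls was not tested. The low M-CSF libraries without LPS are the same ones that stood high in the M-CSF comparison above, so the 2 sets of fold changes are not independent. Neutrophil markers summed to 230.5 to 391 CPM with LPS and 151 to 219 CPM without in T2KO, and to 179 to 206 and 59.9 to 97.9 CPM in WT libraries. Monocyte markers summed to 65.3 to 82.5 CPM with LPS and 137 to 173 CPM without in T2KO, and to 77.3 to 118 and 427 to 504 CPM in WT libraries. Their part in these differences was not tested.

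Among the enzymes, Smpd1 had 5.87, 4.998, 3.33 and 5.34 CPM with LPS and 21.1, 18.4, 19.6 and 16.3 CPM without in T2KO libraries (log2 fold change -1.96 ± 0.22, adjusted p = 1.02e-09). In WT libraries it had 7.29, 6.199, 10.9 and 8.98 CPM with LPS and 24.6, 18.1, 21.02 and 21.8 CPM without (log2 fold change -1.36 ± 0.21, adjusted p = 8.94e-07). The groups did not overlap in either genotype. Neu1, which removes sialic acid from glycoproteins and glycolipids, had 15.8, 26.3, 15.6 and 37.9 CPM with LPS and 81.8, 101, 81.8 and 86.7 CPM without in T2KO libraries (log2 fold change -1.91 ± 0.19, adjusted p = 6.16e-11). It averaged 25.1 ± 4.86 CPM with LPS and 66.1 ± 3.77 CPM without in WT (log2 fold change -1.40 ± 0.19, adjusted p = 8.44e-08). Manba averaged 4.93 ± 1.82 CPM with LPS and 18.5 ± 1.15 CPM without in T2KO (log2 fold change -1.87 ± 0.26, adjusted p = 1.21e-07), and 9.002 ± 3.59 and 15.1 ± 2.94 CPM in WT (log2 fold change -0.75 ± 0.25, adjusted p = 0.0109). Naglu was lower in T2KO (-1.35 ± 0.22) and did not pass in WT (-0.15 ± 0.22). The interaction term given above called this difference between the genotypes. Other genes were lower in both genotypes, with log2 fold changes in T2KO and WT of -1.08 ± 0.16 and -1.58 ± 0.16 for Gla, -1.13 ± 0.14 and -1.38 ± 0.15 for Lipa, -1.19 ± 0.18 and -0.90 ± 0.18 for Galc, and -1.07 ± 0.19 and -1.61 ± 0.19 for Npc1. Gaa was lower too (-1.12 ± 0.21 in T2KO, -0.60 ± 0.22 in WT). Psap (-0.82 ± 0.18), Hexa (-0.83 ± 0.18), Asah1 (-1.15 ± 0.14) and Scarb2 (-0.75 ± 0.18) were lower in T2KO and did not pass in WT (-0.31, -0.25, -0.24 and -0.18). Of these 4, the difference between the genotypes passed its own test for Asah1 alone.

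Tfeb and Mitf changed in opposite directions with LPS. Tfeb had 10.8, 1.999, 3.84 and 3.399 CPM with LPS and 35.6, 21.3, 28.2 and 18.1 CPM without in T2KO libraries in low M-CSF, and 2.65, 0.827, 2.83 and 2.14 CPM with LPS and 23.6, 21.8, 24.5 and 33.2 CPM without in WT libraries. Every library with LPS was below every library without (log2 fold change -2.32 ± 0.37, adjusted p = 1.31e-06 in T2KO; log2 fold change -3.58 ± 0.44, adjusted p = 7.24e-09 in WT). Mitf averaged 346 ± 80.2 CPM with LPS and 88.8 ± 8.04 CPM without in T2KO (log2 fold change 1.96 ± 0.17, adjusted p = 1.11e-12), and 344 ± 29.1 and 86.9 ± 15.7 CPM in WT (log2 fold change 1.99 ± 0.17, adjusted p = 1.09e-12). Tfe3 did not pass in either genotype (0.0 and -0.01). In normal M-CSF Tfeb was also lower and Mitf higher with LPS, with Tfeb at -1.76 ± 0.38 in T2KO and -1.25 ± 0.35 in WT and Mitf at 0.95 ± 0.17 and 1.49 ± 0.17, each passing. Tfec, the remaining member of the MiT family, was higher with LPS in all 4 pairs of groups (3.39 and 4.01 in T2KO and WT in low M-CSF, 3.18 and 2.71 in normal M-CSF).

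The pump subunits changed in both directions. Tcirg1 had 343, 328, 301 and 349.6 CPM with LPS and 181, 157, 194 and 154 CPM without in T2KO libraries in low M-CSF (log2 fold change 0.94 ± 0.16, adjusted p = 2.27e-06). In WT it averaged 301 ± 49.03 and 110.5 ± 15.9 CPM (log2 fold change 1.45 ± 0.16, adjusted p = 6.2e-10), and the groups were apart in both genotypes. Atp6v1h was higher in both as well (0.99 ± 0.20 and 0.92 ± 0.21), while Atp6v0d2 was lower in both (-2.09 ± 0.30 and -1.14 ± 0.27). Within T2KO the subunits Atp6v0d1 (-0.87 ± 0.22), Atp6v1a (-0.96 ± 0.18) and the accessory protein Atp6ap1 (-0.77 ± 0.21) were lower, and in WT these did not pass (-0.05, -0.37 and -0.08). For none of them did the difference between the genotypes pass its own test (edgeR interaction term, adjusted p = 0.0601, 0.117 and 0.0969). Cln3 was higher with LPS in both genotypes, with 208, 204, 162 and 217 CPM with LPS and 143, 88.1, 115 and 88.3 CPM without in T2KO libraries (log2 fold change 0.87 ± 0.16, adjusted p = 1.61e-05) and a log2 fold change of 1.26 ± 0.16 in WT. Lamp2 was higher in T2KO (0.91 ± 0.23), while Lamp1 was lower (-0.60 ± 0.16). In T2KO, Grn was lost without untreated library 1 (adjusted p = 0.11), Ids without untreated library 1 (adjusted p = 0.066) and Atp6v1b2 without untreated library 2 (adjusted p = 0.0527). Tpp1 was lost without LPS libraries 1 or 3 or untreated libraries 2 or 4 (adjusted p between 0.0688 and 0.113), and Man2b1 without LPS libraries 2 or 4 or untreated library 3 (adjusted p between 0.0609 and 0.1). In WT, Tpp1 was lost without untreated library 2 (adjusted p = 0.138). Summing the library pairs left 25 of 34 calls in T2KO and 17 of 22 in WT.

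In normal M-CSF, the lysosomal transcripts that passed with LPS went in both directions. In T2KO cells 6 members were higher and 5 lower, where 20.9% of all genes were higher and 21.8% lower, and in WT cells 5 were higher and 4 lower, where 18.3% and 17.9% were. The members' share called was 26.8% in T2KO and 22.0% in WT, below the 42.7% and 36.1% of all genes. Tcirg1 had 256, 208, 266 and 220.5 CPM with LPS and 112, 144, 125 and 156 CPM without in T2KO libraries (log2 fold change 0.82 ± 0.16, adjusted p = 4.05e-05), and rose by 0.66 ± 0.16 in WT. Cln3 rose by 0.93 ± 0.16 in T2KO and 0.66 ± 0.16 in WT, and Npc2 by 0.65 ± 0.18 and 0.60 ± 0.18. Tfeb and Npc1 were lower in both genotypes, Npc1 with log2 fold changes of -0.53 ± 0.19 in T2KO and -0.64 ± 0.19 in WT. Atp6v1a, the catalytic subunit, was lower in T2KO (log2 fold change -0.96 ± 0.18, adjusted p = 4.97e-05), and Manba and Atp6v0d2 were lower in WT (-0.81 ± 0.22 and -0.96 ± 0.26). In T2KO, Lamp2 was lost without LPS library 1 (adjusted p = 0.0595), Npc1 without LPS libraries 1 or 2 (adjusted p between 0.0541 and 0.0623), and Atp6v1b2 without untreated library 3 (adjusted p = 0.0512). With the library pairs summed, 5 of 11 calls remained in T2KO and 5 of 9 in WT, Tfeb and Mitf in both.

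Whether the LPS response differed between the media was tested within each genotype. In T2KO the response was more negative in low than in normal M-CSF for 21 members and more positive for 1, where 22.0% of all genes were more negative and 13.3% more positive. In WT it was more negative for 10 members and more positive for 1, where 12.8% and 10.7% of all genes were. The median difference was -0.76 for the members and -0.28 for all genes in T2KO, and -0.34 and -0.14 in WT. With RLE scaling the T2KO medians were -0.59 and -0.11, and the share of all calls that were more positive was 50.4% with RLE against 37.6% with TMM. Smpd1 shows the pattern: in T2KO its log2 fold change with LPS was -1.96 in low and 0.05 in normal M-CSF (log2 fold change -2.01 ± 0.29, adjusted p = 1.98e-06 for the difference), and in WT it was -1.36 and -0.25 (log2 fold change -1.10 ± 0.28, adjusted p = 0.00364). Galc, Lipa, Neu1 and Idua also had a more negative response in low M-CSF in both genotypes. Manba (log2 fold change -1.69 ± 0.35, adjusted p = 0.000284) and Gaa (log2 fold change -1.36 ± 0.29, adjusted p = 0.000453) did so in T2KO, and Gla (log2 fold change -1.38 ± 0.23, adjusted p = 2.58e-05) and Tfeb (log2 fold change -2.33 ± 0.58, adjusted p = 0.00305) in WT. The 1 member that was more positive in low M-CSF was Mitf in T2KO (log2 fold change 1.01 ± 0.23, adjusted p = 0.00109) and Tcirg1 in WT (log2 fold change 0.79 ± 0.22, adjusted p = 0.00831). In T2KO, Grn was lost without T2KO low M-CSF with LPS libraries 1, 2 or 3, T2KO low M-CSF without LPS libraries 1 or 3, T2KO normal M-CSF with LPS libraries 1, 2 or 3 or T2KO normal M-CSF without LPS libraries 1 or 3 (adjusted p between 0.0527 and 0.147). Tpp1 was lost there without T2KO low M-CSF with LPS libraries 1 or 3, T2KO low M-CSF without LPS library 4, T2KO normal M-CSF with LPS library 4 or T2KO normal M-CSF without LPS libraries 2 or 4 (adjusted p between 0.0535 and 0.0918). In WT, Man2b1 was lost without WT low M-CSF with LPS libraries 1 or 3, WT low M-CSF without LPS libraries 2 or 4, WT normal M-CSF with LPS libraries 1 or 3 or WT normal M-CSF without LPS library 2 (adjusted p between 0.0529 and 0.135). Summing the library pairs left 7 of 22 calls in T2KO (Galc, Asah1, Smpd1, Gaa, Neu1, Manba and Atp6v0d2) and 2 of 11 in WT (Gla and Tfeb).

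**Figure D5:**
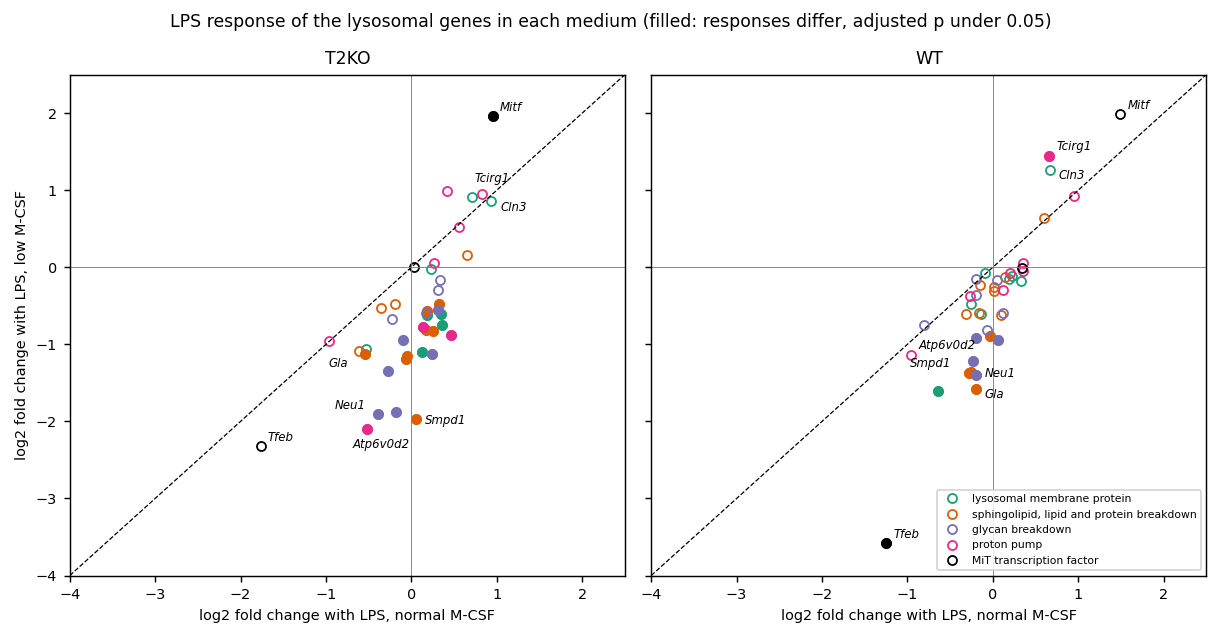
Log2 fold change with LPS in low M-CSF (vertical axis) against that in normal M-CSF (horizontal axis) for the 41 genes, in T2KO and in WT cells, with filled points where the 2 responses differed (edgeR, adjusted p below 0.05). In T2KO, 21 of the 22 filled points lie below the diagonal, and in WT 10 of 11 do. Of all genes, 22.0% were called more negative and 13.3% more positive in T2KO, and 12.8% and 10.7% in WT.

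Lysosomal genes that are not among the 41 were counted in the same comparisons. Of 20 further lysosomal enzymes, 10 were higher and 3 lower in low than in normal M-CSF in T2KO without LPS, where 26.6% and 21.7% of all genes were. In WT 8 of the 20 were higher and 1 lower, where 22.4% and 21.9% of all genes were. With LPS in low M-CSF, 13 of the 20 were lower and 3 higher in T2KO, where 41.0% of all genes were lower and 26.5% higher, and 11 were lower and 1 higher in WT, where 33.6% and 27.0% were. In T2KO against WT in low M-CSF without LPS, 3 of the 20 were higher and 0 lower, where 7.74% and 8.97% of all genes were. They included the acetyltransferase Hgsnat (log2 fold change 0.65 ± 0.16, adjusted p = 0.00468). The phospholipase Pla2g15 had log2 fold changes of 1.70 ± 0.27 and 1.49 ± 0.27 in low M-CSF in T2KO and WT, and of -3.70 ± 0.32 and -2.82 ± 0.32 with LPS in low M-CSF. Sgsh, which removes sulfate from heparan sulfate, had 1.24 ± 0.28 and 1.05 ± 0.28 in low M-CSF, and -3.57 ± 0.34 and -3.63 ± 0.38 with LPS in low M-CSF. Of 14 further membrane proteins tested, 7 were higher in T2KO than in WT in low M-CSF without LPS, among them Laptm4b (log2 fold change 1.83 ± 0.43, adjusted p = 0.00245), and 0 were lower. In low against normal M-CSF without LPS, 8 of the 14 were higher and 0 lower in T2KO, and 3 were higher and 1 lower in WT. Of the same 14, 11 were lower and 1 higher with LPS in T2KO in low M-CSF, and 7 were lower and 1 higher in WT. The cystine exporter Ctns had log2 fold changes of -3.43 ± 0.32 in T2KO and -3.17 ± 0.35 in WT with LPS in low M-CSF. Of 10 further pump subunits tested, 2 were higher and 2 lower in low than in normal M-CSF in T2KO, and 2 were higher and 4 lower in WT. LPS in low M-CSF left 4 of the 10 lower and 2 higher in T2KO, and 1 lower and 3 higher in WT. Of the 10, 2 were higher and 0 lower in T2KO than in WT in low M-CSF without LPS.

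Genes known to control the MiT factors were counted in the same way. Of the 6 tested (Flcn, Fnip1, Fnip2, Rraga, Rragc and Rragd), 2 were higher in T2KO than in WT in low M-CSF without LPS and 0 were lower, where 7.74% of all genes were higher and 8.97% lower. Tfec, listed with them but itself an MiT factor, was higher too (log2 fold change 0.71 ± 0.19, adjusted p = 0.00717). Flcn, whose product lets mTORC1 hold the MiT factors in the cytoplasm, had 115, 83.2, 125 and 90.7 CPM in T2KO libraries and 55, 44.3, 49.2 and 46.8 CPM in WT libraries, with no overlap (log2 fold change 1.08 ± 0.21, adjusted p = 0.000307). Rragc, a Rag GTPase, had 221, 158, 189 and 160.1 CPM in T2KO and 103, 90.7, 112 and 93 CPM in WT libraries, also apart (log2 fold change 0.87 ± 0.16, adjusted p = 0.000128). With the library pairs summed, the call for Flcn remained, while those for Rragc (adjusted p = 0.0677), Tfec (adjusted p = 0.147) and Hgsnat above (adjusted p = 0.144) were lost. With LPS in low M-CSF, 5 of these 6 were lower and 0 higher in each genotype. Of all genes, 41.0% were lower there in T2KO and 33.6% in WT. Flcn had 4.32, 8.997, 8.19 and 10.2 CPM with LPS and 115, 83.2, 125 and 90.7 CPM without in T2KO libraries (log2 fold change -3.73 ± 0.26, adjusted p = 3e-15). In WT it averaged 6.01 ± 2.36 CPM with LPS and 48.8 ± 4.57 CPM without (log2 fold change -3.03 ± 0.27, adjusted p = 3.59e-12). Rragd, the Rag GTPase gene known as an MiT target, averaged 15.1 ± 2.96 CPM in low and 2.98 ± 1.38 CPM in normal M-CSF in T2KO without LPS (log2 fold change 2.29 ± 0.39, adjusted p = 8.03e-06). In WT it averaged 9.88 ± 1.62 CPM in low and 2.11 ± 0.764 CPM in normal M-CSF (log2 fold change 2.25 ± 0.40, adjusted p = 2.07e-05). With LPS in low M-CSF it had 0.309, 0.333, 1.28 and 2.91 CPM in T2KO and 0, 0, 0.808 and 0 CPM in WT libraries. These lists were chosen with earlier results of the same libraries known.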

How the data were processed

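RNA was measured in 32 libraries, 4 in each of 8 groups. Per the labels' protocols, mRNA was captured on oligo-dT beads, primed with barcoded oligo-dT, pooled by Actb qPCR and amplified for 12 PCR cycles into strand-specific libraries, and no molecular identifiers are mentioned. The authors deposited 1 table of unnormalised counts, with a row per gene. The submitters' processing notes name STAR, HTSeq, DESeq2 and mm10, and the annotation and the strand setting of the counting are not given in the sources used here. Copies of 1 molecule made by PCR therefore cannot be told from separate molecules. Of 24885 identifiers, 23969 matched a symbol by Entrez identifier (99.5% of counts), and 0 columns of per-library values were left unused.

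Groups were taken from the library titles. Counts were fitted with edgeR 4.0.16 (R 4.3.3) in 1 model with a mean per group, TMM scaling and filterByExpr at its defaults, which kept 11244 genes and all 41 members. The quasi-likelihood F test (two-sided) was used for each contrast, with Benjamini-Hochberg adjustment over those genes, at an adjusted p of 0.05. Log2 fold changes carry their SE (the fold change divided by the square root of F). The method was tested on simulated data. Alternatives were RLE scaling, no filter, DESeq2 1.42.0, the compared groups alone, each library left out, a replicate block, and libraries 1 and 3, and 2 and 4, summed. The members and lists were chosen with earlier results of these data known. Full values were given to at most 10 members a comparison, those called with the largest fold changes, and to at most 3 called genes of each other list. The RefSeq promoter table, build GRCm38.p6, gave the sequences, and Ly6g was not matched. Of the cell marker lists, dendritic markers are given in the closing section.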

Additional observations from a re-analysis of the deposited data

Results flagged for a closer look

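Of 328 sets of 4 libraries (41 genes in 8 groups), 7 held a library whose gap to its nearest neighbour was large against the range of its group (2.13%, where chance gives about 5%). In WT cells in low M-CSF without LPS, library 2 was the low one for Lamp1 (563.8 CPM) and for Psap (1492 CPM), both of which were called higher in T2KO there. In WT cells in normal M-CSF without LPS, library 1 was the high one for Grn (1859 CPM) and for Atp6v1b2 (185.7 CPM). The others were Cln3 in library 4 of WT cells in normal M-CSF with LPS (103.7 CPM), Mcoln1 in library 2 of WT cells in low M-CSF with LPS (14.88 CPM) and Ids in library 1 of T2KO cells in low M-CSF with LPS (31.8 CPM), each the highest of its group.

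The remaining results are 41 interaction terms past an adjusted p of 0.05 in edgeR, given here as differences of log2 fold changes. The genotype difference without LPS varied with M-CSF for Scarb2 (0.88), Gla (-0.74) and Atp6v0d2 (1.41). In low M-CSF, the LPS response in T2KO minus that in WT was 1.02 for Lamp2, -0.92 for Asah1, 0.75 for Gusb, -1.2 for Naglu and -1.12 for Manba.

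Within T2KO, the LPS response in low minus that in normal M-CSF was called for 22 genes. Among membrane proteins it was -0.95 for Lamp1, -0.8 for Cd68, -1.11 for Scarb2 and -1.23 for Mcoln1. Among genes of lipid and protein breakdown it was -0.98 for Psap, -0.76 for Grn, -1.07 for Hexa, -1.13 for Galc, -1.11 for Asah1, -2.01 for Smpd1, -0.59 for Lipa and -0.8 for Tpp1. Among genes of glycan breakdown it was -1.36 for Gaa, -1.08 for Naglu, -1.52 for Neu1, -1.69 for Manba, -0.85 for Idua and -0.87 for Ids. The pump genes Atp6v0d1 (-1.34), Atp6v0d2 (-1.58) and Atp6ap1 (-0.9) were more negative as well, and Mitf (1.01) was more positive.

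Within WT, the same difference was -0.97 for Npc1, -1.38 for Gla, -0.87 for Galc, -1.1 for Smpd1, -1.09 for Lipa, -0.72 for Gusb, -1.2 for Neu1, -1.0 for Man2b1 and -0.99 for Idua. It was 0.79 for Tcirg1 and -2.33 for Tfeb.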

How the results depend on the processing

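Across the 12 two-group comparisons, 186 member calls were made, and no member call changed sign under any alternative run. RLE scaling ended 11 of them, no filter 11, DESeq2 9, the compared groups alone 18, the replicate block 3, and summing libraries 1 and 3, and 2 and 4, ended 74. Leaving out some library ended 35. Where a reason is not given by the smaller number of samples or genes, the cause was not tested.

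Summing the pairs left 1 call for T2KO against WT in low M-CSF without LPS (11 before), 1 with LPS (7), and 1 in normal M-CSF with LPS (4). It left 15 of 25 for M-CSF in T2KO with LPS, 10 of 18 in WT with LPS, and 5 of 11 and 5 of 9 for LPS in normal M-CSF in T2KO and WT. For genotype by M-CSF without LPS it left 0 of 3, for genotype by LPS in low M-CSF 0 of 5, and for M-CSF by LPS 7 of 22 in T2KO and 2 of 11 in WT. T2KO against WT in low M-CSF with LPS gave 4 calls with no filter and 4 with its groups alone. LPS in T2KO in normal M-CSF gave 17 with its groups alone, and genotype by LPS in low M-CSF 2. Genotype by M-CSF gave 5 with DESeq2 without LPS (3), and with LPS, where edgeR called none, it gave 1 with RLE, 1 with no filter and 2 with DESeq2.

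With 1 library left out, calls ranged from 6 to 11 for T2KO against WT in low M-CSF without LPS (6 without T2KO library 1 and 7 without WT library 2), and from 2 to 3 in normal M-CSF with LPS (4 with all libraries; 2 without T2KO library 1 or 3 or WT library 2, 3 or 4). They ranged from 0 to 3 for genotype by M-CSF without LPS and from 0 to 2 with LPS. For genotype by LPS in low M-CSF they ranged from 3 (without T2KO library 1 or 3 with LPS) to 8 (without T2KO library 4 with LPS).

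Over all 11244 genes, counts of calls that moved by over 1.5 times were as follows. With pairs summed, T2KO against WT fell to 621 (1879 with all libraries) and 485 (2147) in low M-CSF without and with LPS, and to 39 (209) and 43 (454) in normal M-CSF. M-CSF gave 3539 (5422) in T2KO and 2969 (4983) in WT without LPS and 3327 (5132) in WT with LPS, and LPS in WT in normal M-CSF gave 2594 (4061). Interactions gave 97 (519) and 1 (617) for genotype by M-CSF without and with LPS, 91 (1800) and 0 (60) for genotype by LPS in low and normal M-CSF, and 1702 (3971) and 853 (2649) for M-CSF by LPS in T2KO and WT. DESeq2 gave 359 and 693 for T2KO against WT in normal M-CSF without and with LPS, 945 for genotype by M-CSF with LPS and 188 for genotype by LPS in normal M-CSF, which had 102 with no filter. With the compared groups alone, T2KO against WT with LPS gave 1037 in low and 866 in normal M-CSF, and genotype by LPS gave 959 in low and 120 in normal M-CSF. With 1 library left out, T2KO against WT in normal M-CSF with LPS ranged from 222 to 302, genotype by M-CSF with LPS from 322 to 381, and genotype by LPS in normal M-CSF from 30 to 39.

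Replicate numbers did not pair the libraries: over 112 pairs with the same number the deviations from group means correlated between -0.30 and 0.29 (median 0.01), and 9 of 32 libraries were closest to their own number. The replicate block gave 23 calls against 24 for M-CSF in T2KO without LPS and 24 against 25 with LPS. Genes with few reads, such as Smpd1, Manba, Tfeb and Atp6v0d2, carry the widest counting error, and no interval here covers more than the spread between libraries.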

Other observations

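The 5 dendritic cell markers summed to 4.61 to 16.5 CPM in T2KO and 10.9 to 20.2 CPM in WT libraries in low M-CSF with LPS, and to 0.456 to 1.56 and 1.41 to 5.11 CPM there without LPS. In normal M-CSF they summed to 3.51 to 11.8 CPM in T2KO and 9.4 to 9.58 CPM in WT libraries with LPS, and to 0.931 to 2.49 and 3.52 to 6.52 CPM without. Flt3, Zbtb46 and Xcr1, which define dendritic cells, stayed at or below 1.21 CPM in every library and were too low to test. Ccr7, the other gene tested, did not pass between the genotypes in any condition. Itgax, an integrin of dendritic cells and some macrophages, had 0.304, 0.363, 1.01 and 0.434 CPM in T2KO and 4.34, 1.15, 5.11 and 3.36 CPM in WT libraries in low M-CSF without LPS, with no overlap (log2 fold change -2.68 ± 0.50, adjusted p = 0.000127). It was also lower in T2KO in low M-CSF with LPS (log2 fold change -2.75 ± 0.52, adjusted p = 0.000264) and in normal M-CSF without LPS (log2 fold change -1.62 ± 0.43, adjusted p = 0.0355), and did not pass in normal M-CSF with LPS (log2 fold change -0.77 ± 0.42, adjusted p = 0.38). The call in normal M-CSF without LPS was lost without T2KO libraries 1, 2 or 4 or WT libraries 1, 2 or 3 (adjusted p between 0.0648 and 0.139) and with the library pairs summed (adjusted p = 0.182).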
